A study of Mus musculus with 9 samples.

Results

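The motile cilia genes described here are a list of 38 genes that build, move or control motile cilia. They were chosen by symbol from a deposited expression matrix of 54838 mouse genes, and all 38 were found, 2 of them (Dnai1 and Dnai2) under the older symbols Dnaic1 and Dnaic2. RNA had been sequenced from corona radiata, the layer of cumulus granulosa cells around the oocyte, of adult mice stimulated with PMSG and hCG, which drive follicle growth and ovulation. The labels add "J4" to the stimulation without explaining it. The 9 libraries form 3 genotypes of 3 libraries each. Transgenic libraries came from LXR DKO mice that also carried the transgene TG-AMH-LXRb, LXR DKO libraries from mice lacking both liver X receptors, and WT libraries from wild-type mice. Neither the promoter of the transgene nor the deleted exons are given in the labels, and nothing states that replicates were separate animals. The p-values therefore reflect variation among these libraries alone, part of which may be technical.

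Motile cilia are microtubule-based projections that beat and push fluid or cells along an epithelium. Outer and inner dynein arms slide the outer microtubule doublets against each other, while radial spokes, the central pair apparatus and the nexin-dynein regulatory complex coordinate the beat. In the female reproductive tract such cilia are known from the ciliated cells of the oviduct, which alternate with secretory cells that make oviductin. Granulosa and cumulus cells bear primary, not motile, cilia. Because these are bulk libraries, fewer cells of a type and less RNA per cell cannot be told apart.

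The level of each gene is given as RPKM, reads per kilobase of gene scaled to library size, as the authors deposited it. Each library was scaled to between 31086718 and 47038045 reads, and 3 reads in a gene with 1 kb of exons correspond to 0.0638 to 0.0965 RPKM. Nr1h2, which encodes LXR beta, measured 4.83, 5.28 and 6.70 RPKM in transgenic libraries 1 to 3, 3.57, 2.85 and 3.03 RPKM in LXR DKO libraries, and 45.7, 39.7 and 39.7 RPKM in WT. Granulosa markers were present in every library: the mean log2(RPKM + 1) of 20 such genes was 4.54 to 4.73 in transgenic, 4.59 to 4.82 in LXR DKO libraries and 4.88 to 5.24 in WT libraries. Some libraries stood apart in markers of other cells. The oocyte markers averaged 3.24 in LXR DKO 1 and 4.98 in WT 1 but at most 1.53 elsewhere, and the erythroid markers averaged 7.31 in WT 3 but at most 5.30 elsewhere.

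Cilia genes are controlled in part through the X-box, the site bound by RFX transcription factors, and 2 of these factors, Rfx2 and Rfx3, are in the list. The promoters below are shown because each holds a match to this site. Promoter windows of RefSeq (GRCm38.p6, 250 bases before to 50 bases after the gene start) were available for 32 of the 38 genes. An X-box was searched on both strands as GTNNCC, then 0 to 3 bases, then GGNAAC. It was found in 5 of the 32 genes (15.6%), against 724 of all 27025 genes in the table (2.68%). Those 5 were Fam183b, Zmynd10, Ccno, Pifo and Tekt4. The match began 16 bases before the start of Fam183b (chr11:58801911-58802210, minus strand), at the start of Zmynd10 (chr9:107547054-107547353, plus strand) and 219 bases before that of Ccno (chr13:112987552-112987851, plus strand). Each window is written 5′ to 3′ on the strand of its gene, with the matched X-box in capitals.
Fam183b: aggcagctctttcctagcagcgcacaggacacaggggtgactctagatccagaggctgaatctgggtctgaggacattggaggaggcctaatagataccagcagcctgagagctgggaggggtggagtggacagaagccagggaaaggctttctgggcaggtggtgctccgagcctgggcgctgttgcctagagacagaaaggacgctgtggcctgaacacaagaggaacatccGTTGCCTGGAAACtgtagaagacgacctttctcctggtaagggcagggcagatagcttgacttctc
Zmynd10: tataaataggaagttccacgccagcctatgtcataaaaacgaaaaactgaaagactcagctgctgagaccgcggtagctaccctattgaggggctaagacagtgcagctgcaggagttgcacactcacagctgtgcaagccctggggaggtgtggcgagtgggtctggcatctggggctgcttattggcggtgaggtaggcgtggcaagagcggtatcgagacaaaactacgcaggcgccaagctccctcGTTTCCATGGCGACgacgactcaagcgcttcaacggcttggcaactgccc
Ccno: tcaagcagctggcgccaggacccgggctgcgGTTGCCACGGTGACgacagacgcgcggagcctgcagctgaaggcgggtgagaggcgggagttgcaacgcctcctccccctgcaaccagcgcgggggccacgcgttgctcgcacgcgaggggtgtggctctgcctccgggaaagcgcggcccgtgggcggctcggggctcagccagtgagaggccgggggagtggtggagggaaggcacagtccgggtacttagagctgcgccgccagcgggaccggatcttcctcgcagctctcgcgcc
The core site of forkhead factors such as FOXJ1, TGTTTAC on either strand, was found in 1 of the 32 genes (3.12%), Cfap43, and in 1095 of all 27025 genes (4.05%). The 3 printed promoters belong to genes that differed in their levels across libraries: Fam183b and Zmynd10 followed most of the list, and Ccno did not, as described below.

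The libraries in which motile cilia genes were high or low cut across the genotypes. The mean log2(RPKM + 1) over all 38 was 2.90, 2.11 and 2.95 in transgenic libraries 1 to 3, 1.67, 2.25 and 1.93 in LXR DKO libraries and 1.16, 0.97 and 2.79 in WT libraries. Transgenic 3, transgenic 1 and WT 3 were thus the highest, WT 1 and WT 2 the lowest, and the LXR DKO libraries lay between, together with transgenic 2. Of the 38 genes, 13 had their highest value in transgenic 1, 12 in transgenic 3, 12 in WT 3 and 1 in WT 1, and 36 had their lowest value in WT 1 or WT 2. WT 3 exceeded both other WT libraries for 37 genes and all 3 LXR DKO libraries for 33. WT 1 and WT 2 lay below every transgenic library for 37 genes and below every LXR DKO library for 35. This sets WT 3 aside, a choice made after its high values for these genes had been seen. The counts in this paragraph were made for the list only, with no share over all genes beside them.

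**Figure D1:**
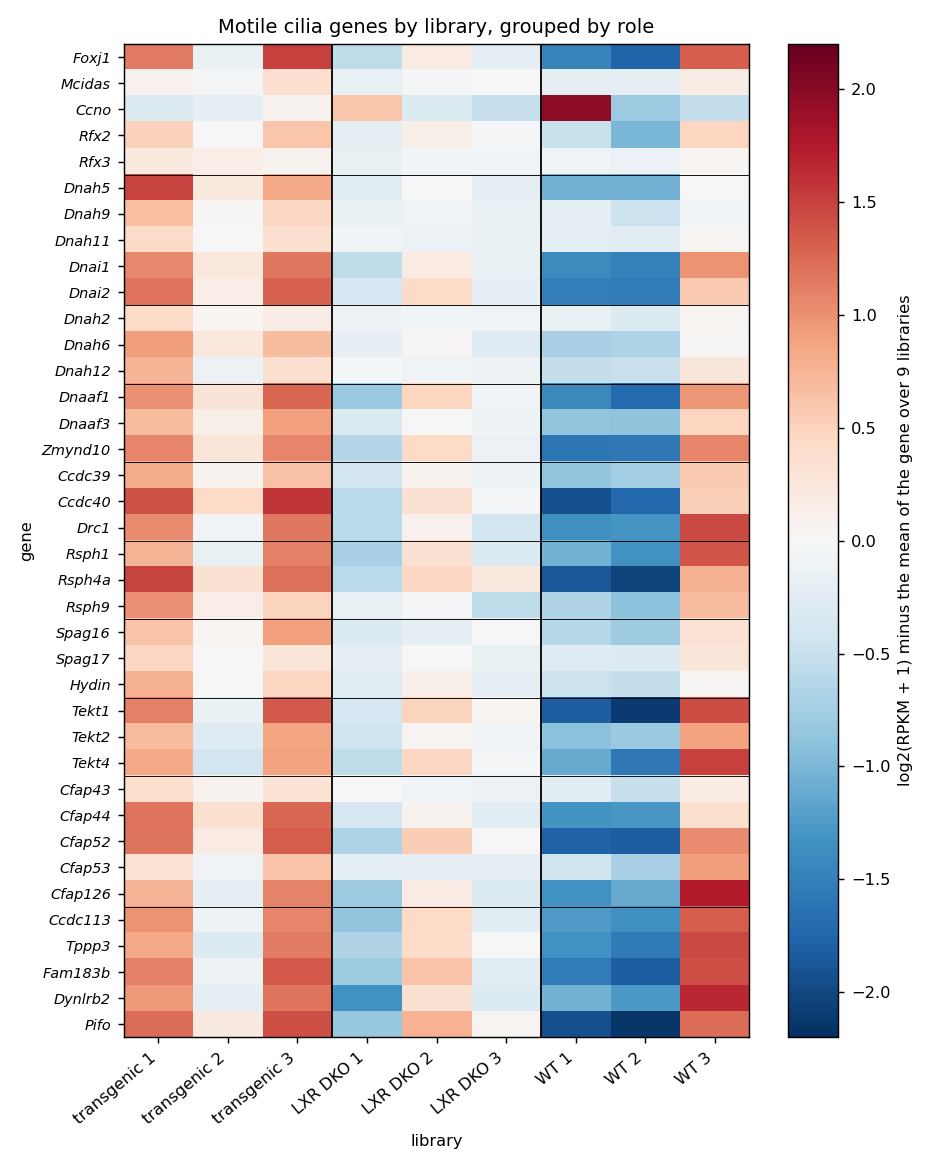
Each row is 1 motile cilia gene, grouped by role, and each column 1 library; the colour gives log2(RPKM + 1) minus the mean of that gene over the 9 libraries, with red above and blue below. Transgenic 1, transgenic 3 and WT 3 are red in most rows, WT 1 and WT 2 are blue, and Ccno stands out with its highest value in WT 1.

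Within a genotype the spread was widest in WT. The highest library exceeded the lowest by a median factor of 2.46 among the transgenic libraries (1.16 for Rfx3 to 3.43 for Foxj1), 2.04 among the LXR DKO libraries (1.07 for Cfap53 to 5.23 for Ccno) and 10.2 among the WT libraries (1.23 for Rfx3 to 49.3 for Ccno). The order of libraries inside each genotype was also shared. Transgenic 2 was the lowest transgenic library for 36 of 38 genes, LXR DKO 1 the lowest LXR DKO library for 30, and LXR DKO 2 the highest for 32.

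Among the regulators, Foxj1 encodes the forkhead factor that switches on the motile cilia programme (ENSMUSG00000034227, mm10 chromosome 11, 116330704 to 116335399, minus strand). Foxj1 measured 19.1, 7.16 and 24.6 RPKM in transgenic libraries 1 to 3, 5.16, 9.24 and 6.87 RPKM in LXR DKO libraries and 2.29, 1.67 and 21.7 RPKM in WT. It was lowest in WT 1 and WT 2, and the ranges of all 3 genotypes overlapped. Mcidas, a coregulator that commits cells to multiciliation, measured 0.291, 0.189 and 0.558 RPKM in transgenic, 0.0702, 0.176 and 0.207 RPKM in LXR DKO libraries and 0.0478, 0.0341 and 0.349 RPKM in WT libraries. With as few as 3 reads, in WT 2, it was too low to be tested, but it too was highest in transgenic 3 and WT 3. Rfx2 measured 4.22, 2.64 and 4.61 RPKM in transgenic, 2.16, 3.02 and 2.55 RPKM in LXR DKO libraries and 1.59, 0.831 and 4.10 RPKM in WT libraries, with the same low WT 1 and WT 2. Rfx3, its relative with roles also in primary cilia, was nearly even, at 1.70, 1.57 and 1.46 RPKM in transgenic, 1.08, 1.23 and 1.22 RPKM in LXR DKO libraries and 1.17, 1.14 and 1.39 RPKM in WT libraries.

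Ccno was the exception among the regulators. It encodes a cyclin-like protein needed to multiply centrioles in multiciliated cells, and it is also known from oocytes. Ccno measured 0.591, 0.718 and 1.07 RPKM in transgenic, 2.02, 0.608 and 0.386 RPKM in LXR DKO libraries and 6.77, 0.137 and 0.366 RPKM in WT libraries. Its highest values were in WT 1 and LXR DKO 1, the libraries with the most oocyte RNA, where Gdf9, for a growth factor secreted by the oocyte, measured 136 RPKM (LXR DKO 1) and 126 RPKM (WT 1). In the other libraries Gdf9 measured 3.69, 10.9 and 6.89 RPKM in transgenic, 2.97 and 0.756 RPKM in LXR DKO libraries and 0.505 and 0.701 RPKM in WT. The part of oocyte RNA in the Ccno values was not tested.

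The outer arm dyneins drive the beat. Dnah5 encodes an outer arm heavy chain (ENSMUSG00000022262, chromosome 15, 28203752 to 28472052, plus strand). Dnah5 measured 5.69, 1.78 and 3.27 RPKM in transgenic libraries 1 to 3, 1.01, 1.41 and 1.05 RPKM in LXR DKO libraries and 0.139, 0.143 and 1.40 RPKM in WT. Every transgenic library exceeded every LXR DKO and every WT library, though transgenic 2 exceeded LXR DKO 2 and WT 3 only narrowly. The intermediate chain gene Dnai2 measured 9.48, 4.10 and 10.2 RPKM in transgenic, 2.51, 5.14 and 3.03 RPKM in LXR DKO libraries and 0.592, 0.574 and 5.85 RPKM in WT libraries. Dnai1, for the partner intermediate chain, measured 7.43, 3.79 and 8.05 RPKM in transgenic, 1.77, 3.60 and 2.67 RPKM in LXR DKO libraries and 0.547, 0.447 and 7.09 RPKM in WT. Both chains thus had a WT 3 value within the transgenic range. The heavy chain genes Dnah9 and Dnah11 were low, at 0.609 to 1.51 and 0.205 to 0.615 RPKM in transgenic, 0.414 to 0.513 and 0.0922 to 0.165 RPKM in LXR DKO libraries, and 0.147 to 0.508 and 0.0168 to 0.228 RPKM in WT libraries, and neither was tested.

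Of the inner arm dyneins, which shape the bend, Dnah6 was the highest (ENSMUSG00000052861, chromosome 6, 73017606 to 73221651, minus strand). Dnah6 measured 2.48, 1.17 and 1.94 RPKM in transgenic libraries, 0.625, 0.878 and 0.516 RPKM in LXR DKO libraries and 0.127, 0.149 and 0.871 RPKM in WT. As for Dnah5, no transgenic library overlapped either other genotype. Dnah12 measured 1.84, 0.546 and 1.15 RPKM in transgenic, 0.649, 0.600 and 0.567 RPKM in LXR DKO libraries and 0.166, 0.193 and 0.995 RPKM in WT libraries. Dnah2 stayed below 1 RPKM, at 0.327 to 0.728 in transgenic, 0.198 to 0.234 in LXR DKO libraries and 0.0523 to 0.351 in WT libraries. Dynein arms are put together in the cytoplasm by assembly factors. Among these, Zmynd10 measured 9.93, 5.23 and 9.84 RPKM in transgenic, 2.31, 6.02 and 3.72 RPKM in LXR DKO libraries and 0.715, 0.749 and 9.95 RPKM in WT libraries. Dnaaf1 measured 6.92, 3.79 and 8.43 RPKM in transgenic, 1.23, 4.48 and 2.79 RPKM in LXR DKO libraries and 0.475, 0.211 and 6.69 RPKM in WT libraries. Dnaaf3 ranged from 1.94 to 4.03 RPKM in transgenic, 1.16 to 1.72 RPKM in LXR DKO libraries and 0.462 to 2.75 RPKM in WT libraries. All 3 assembly factors were at their lowest in WT 1 and WT 2, and WT 3 lay within or just above their transgenic range.

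Ccdc39 and Ccdc40 encode the paired ruler that sets the spacing of spokes and inner arms along a doublet, and Drc1 a subunit of the nexin-dynein regulatory complex. Ccdc40 (chromosome 11, 119228572 to 119265238, plus strand) measured 15.8, 7.64 and 18.05 RPKM in transgenic, 3.21, 7.03 and 5.27 RPKM in LXR DKO libraries and 0.674, 0.927 and 8.22 RPKM in WT libraries. WT 3 overlapped the transgenic range only through transgenic 2. Drc1 measured 9.76, 4.03 and 10.8 RPKM in transgenic, 2.49, 4.59 and 2.91 RPKM in LXR DKO libraries and 1.07, 1.13 and 13.3 RPKM in WT libraries, so that here WT 3 was the highest of all. Ccdc39, the partner of Ccdc40, ranged from 1.41 to 3.00 RPKM in transgenic, 0.695 to 1.41 RPKM in LXR DKO libraries and 0.244 to 2.39 RPKM in WT libraries.

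Radial spoke head genes included Rsph1, among the highest genes of the list. Rsph1 measured 41.8, 21.8 and 54.1 RPKM in transgenic, 14.6, 31.2 and 19.8 RPKM in LXR DKO libraries and 11.4, 9.17 and 65.6 RPKM in WT libraries. Rsph9 measured 15.9, 8.23 and 10.7 RPKM in transgenic, 6.50, 7.13 and 4.67 RPKM in LXR DKO libraries and 4.31, 3.49 and 12.3 RPKM in WT libraries. Rsph4a measured 15.96, 6.64 and 12.99 RPKM in transgenic, 2.99, 7.29 and 6.05 RPKM in LXR DKO libraries and 0.653, 0.481 and 9.37 RPKM in WT libraries. The spoke genes shared the low WT 1 and WT 2, but differed in where WT 3 fell: above every transgenic library for Rsph1 and between them for Rsph9 and Rsph4a. Of the central pair genes, Spag16 measured 1.84, 0.899 and 2.43 RPKM in transgenic, 0.483, 0.610 and 0.853 RPKM in LXR DKO libraries and 0.185, 0.0679 and 1.28 RPKM in WT libraries. Hydin, for a very large central pair projection protein, measured 1.62, 0.526 and 1.11 RPKM in transgenic, 0.275, 0.631 and 0.341 RPKM in LXR DKO libraries and 0.0919, 0.0584 and 0.535 RPKM in WT libraries. Spag17 remained at 0.349 to 0.847 RPKM in transgenic, 0.166 to 0.341 RPKM in LXR DKO libraries and 0.102 to 0.624 RPKM in WT libraries.

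The tektins line the inside of the doublet microtubules. Tekt1 measured 22.1, 8.73 and 26.3 RPKM in transgenic, 7.25, 14.0 and 10.1 RPKM in LXR DKO libraries and 2.06, 1.499 and 27.9 RPKM in WT libraries. Tekt4 measured 9.90, 3.61 and 10.3 RPKM in transgenic, 3.20, 7.44 and 5.07 RPKM in LXR DKO libraries and 1.84, 1.07 and 16.5 RPKM in WT libraries. Tekt2 ranged from 1.202 to 3.91 RPKM in transgenic, 0.979 to 1.78 RPKM in LXR DKO libraries and 0.430 to 3.96 RPKM in WT libraries. For all 3 tektins WT 3 was the highest of the 9 libraries.

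Cfap44 encodes a protein of the tether between dynein motor domain and doublet (ENSMUSG00000071550, chromosome 16, 44394796 to 44482428, plus strand). Cfap44 measured 7.02, 3.42 and 7.40 RPKM in transgenic, 1.73, 2.72 and 1.96 RPKM in LXR DKO libraries and 0.422, 0.440 and 3.51 RPKM in WT libraries. Transgenic 2 lay just below WT 3, and the LXR DKO libraries were all below the transgenic ones. Its partner in the tether, Cfap43, was more even, at 3.82, 2.87 and 3.55 RPKM in transgenic, 2.69, 2.53 and 2.37 RPKM in LXR DKO libraries and 2.13, 1.59 and 3.10 RPKM in WT libraries. Cfap126, also called Flattop and linked to basal body position, measured 11.6, 5.51 and 14.99 RPKM in transgenic, 3.33, 7.55 and 4.999 RPKM in LXR DKO libraries and 2.00, 2.47 and 24.2 RPKM in WT libraries. Cfap52, for a protein inside the doublet, measured 11.4, 5.23 and 12.7 RPKM in transgenic, 2.41, 7.01 and 4.51 RPKM in LXR DKO libraries and 0.587, 0.559 and 10.3 RPKM in WT libraries. WT 3 was thus above all transgenic libraries for Cfap126 and inside their range for Cfap52. Cfap53, another protein inside the doublet, ranged from 0.829 to 1.96 RPKM in transgenic, 0.647 to 0.690 RPKM in LXR DKO libraries and 0.166 to 2.62 RPKM in WT libraries.

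The remaining genes held the highest levels of the list. Tppp3, for a tubulin polymerization-promoting protein, measured 88.9, 40.3 and 111 RPKM in transgenic, 31.0, 66.0 and 50.03 RPKM in LXR DKO libraries and 19.0, 16.2 and 138 RPKM in WT libraries. Fam183b, whose promoter is printed above, measured 55.0, 23.0 and 65.2 RPKM in transgenic, 14.0, 38.8 and 20.7 RPKM in LXR DKO libraries and 7.93, 6.34 and 67.9 RPKM in WT libraries. Dynlrb2, for a dynein light chain of the roadblock type, measured 46.9, 20.6 and 54.9 RPKM in transgenic, 8.83, 30.2 and 19.0 RPKM in LXR DKO libraries and 11.0, 9.23 and 76.5 RPKM in WT libraries. WT 3 was the highest of the 9 libraries for these 3 genes. The Dynlrb2 paralog Dynlrb1, a light chain of cytoplasmic dynein in all cells, was also highest in WT 3 but varied far less. It measured 53.1, 49.0 and 55.9 RPKM in transgenic, 50.6, 50.4 and 44.1 RPKM in LXR DKO libraries and 54.6, 58.1 and 73.8 RPKM in WT libraries. Pifo, linked to cilium disassembly, measured 38.6, 18.5 and 44.1 RPKM in transgenic, 8.51, 27.8 and 16.6 RPKM in LXR DKO libraries and 3.45, 2.83 and 38.4 RPKM in WT libraries. Ccdc113, a protein of centriolar satellites and the axoneme, ranged from 3.60 to 9.45 RPKM in transgenic, 1.72 to 5.73 RPKM in LXR DKO libraries and 0.965 to 11.6 RPKM in WT libraries.

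Transgenic libraries were compared with WT libraries to see how the mice that carry the transgene differ from wild type. Few motile cilia genes passed the test: 3 of the 31 that reached 1 RPKM in 3 or more libraries were higher in transgenic libraries and 0 were lower (limma on log2(RPKM + 1), Benjamini-Hochberg adjusted p under 0.05 over 16422 genes). Of all genes tested, 5.15% were called higher and 6.72% lower in this comparison. The remaining 7 genes, Mcidas, Dnah9, Dnah11, Dnah2, Dnah12, Spag17 and Hydin, did not reach the filter. Dnah5 rose by 1.56 ± 0.36 on the log2 scale (SE; limma, adjusted p = 0.0298), with means of 3.58 ± 1.98 RPKM in transgenic and 0.560 ± 0.724 RPKM in WT libraries (SD, n = 3 each). Dnah6 rose by 1.07 ± 0.24 (limma, adjusted p = 0.0273), with means of 1.86 ± 0.659 RPKM in transgenic and 0.382 ± 0.424 RPKM in WT libraries (SD). Cfap44 rose by 1.67 ± 0.44 (limma, adjusted p = 0.0431), with means of 5.95 ± 2.20 RPKM in transgenic and 1.46 ± 1.78 RPKM in WT libraries (SD). The 3 genes encode a heavy chain of each dynein arm and a tether protein, and other genes with larger differences did not pass. Ccdc40 differed by 2.18 ± 0.62 (limma, adjusted p = 0.053), Rsph4a by 2.05 ± 0.70 (limma, adjusted p = 0.089) and Foxj1 by 1.47 ± 0.76 (limma, adjusted p = 0.228). The 31 log2 fold changes had a median of 1.06 and ranged from -0.36 to 2.18, with 30 above 0, against a median of 0.01 over all genes tested. Only 4 of all 38 genes, Dnah5, Dnah6, Dnah9 and Rfx3, had every transgenic library above every WT library, as did 10.3% of the 37863 genes with any value above 0 and 16.8% of the genes tested.

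Of all libraries, WT 3 changed the count of calls in this comparison most. Without that library 29 of the 31 genes passed, all but Ccno and Rfx3, where 12.7% of all genes tested were called higher and 8.99% lower. Foxj1 then differed by 2.45 ± 0.43 (limma, adjusted p = 0.0063), Ccdc40 by 2.97 ± 0.36 (limma, adjusted p = 0.0017) and Rsph4a by 2.96 ± 0.38 (limma, adjusted p = 0.002). WT 3 was singled out after its high values for these genes had been seen. The WT libraries left, WT 1 and WT 2, lay below every transgenic library for 37 of all 38 genes, a count not made over all genes. The p-values without WT 3 are thus no separate support for a difference. In the other direction, the calls on Dnah5, Dnah6 and Cfap44 were each lost when WT 1, WT 2, transgenic 1 or transgenic 3 was left out, and 0 of the 31 genes then passed. The call on Cfap44 was also lost without transgenic 2 or any 1 LXR DKO library. Those on all 3 genes were lost without a filter (limma, adjusted p = 0.0711 to 0.109) and with the LXR DKO libraries left out of the fit (0.0587 to 0.0887). The same held with Ovgp1 as a covariate (limma, adjusted p = 0.261 to 0.455) and without both WT 1 and LXR DKO 1 (0.0914 to 0.135). Every transgenic library had more Ovgp1 than any other library, so the fit with that covariate cannot separate Ovgp1 from the genotype. WT 3 also had the most erythroid RNA, with the globin gene Hbb-bs at 2663 RPKM against 319.5 RPKM at most elsewhere, and its part in the cilia gene levels was not tested.

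**Figure D2:**
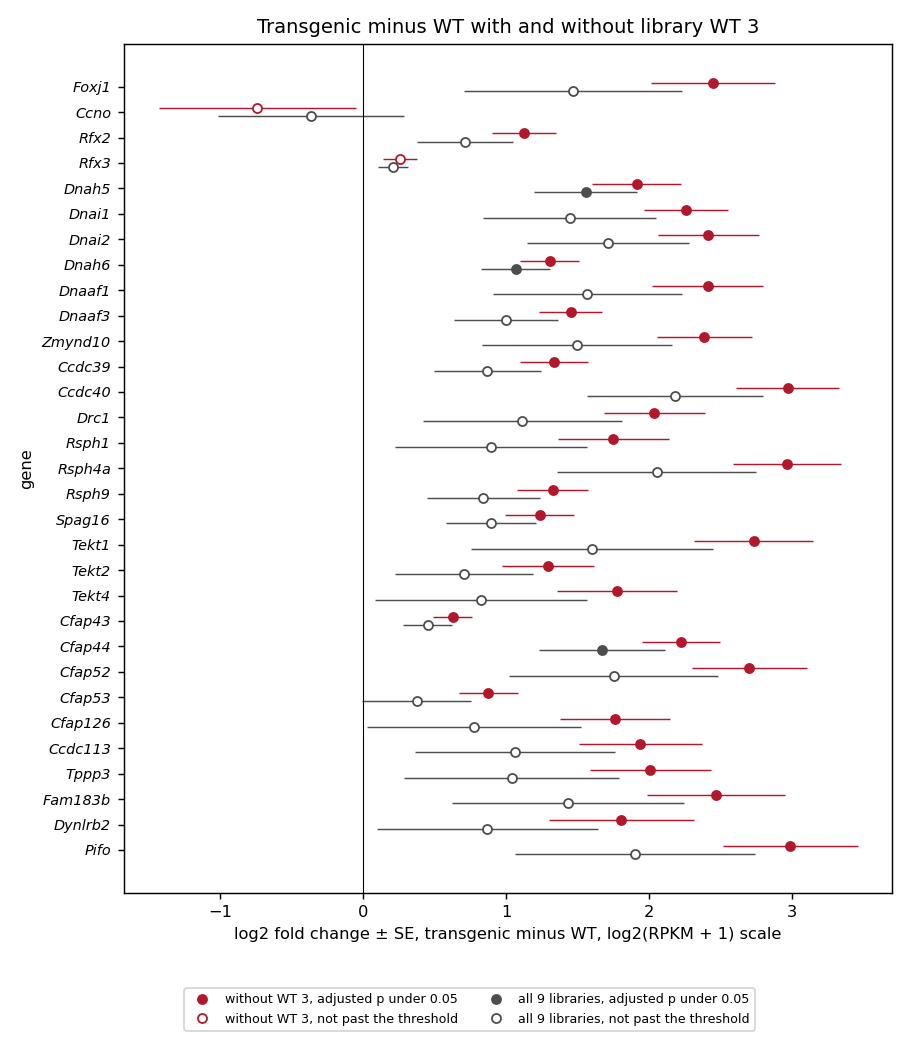
Points give the log2 fold change of each tested motile cilia gene, transgenic minus WT, with its standard error as a bar, from all 9 libraries and without WT 3; filled points passed an adjusted p of 0.05. With all libraries 3 genes are filled, Dnah5, Dnah6 and Cfap44, and without WT 3 there are 29. WT 3 was singled out after its values for these genes had been seen.

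LXR DKO and WT libraries were then compared. In this comparison 0 of the 31 motile cilia genes passed in either direction (limma), and a test on recovered reads with limma's voom also called 0. An unadjusted p under 0.05 in either direction was found for 0 of the 31, against 4354 of all 16422 genes tested. Those that were higher made up 11.4% of all genes tested. Of all genes tested, 3.47% were called higher in LXR DKO and 7.12% lower. The median log2 fold change of the list was 0.31, with 26 of 31 above 0, against 0.02 over all genes tested. Foxj1 averaged 7.09 ± 2.05 RPKM in LXR DKO libraries and 8.55 ± 11.4 RPKM in WT libraries (SD, n = 3 each), a difference of 0.44 ± 0.76 on the log2 scale (limma, adjusted p = 0.766). Its RPKM mean was thus lower and its mean on the log2 scale higher in LXR DKO, since WT 3 weighs more in the RPKM mean. Of all 38 genes, 0 had every LXR DKO library above every WT library, as did 7.99% of the 37863 genes and 13.1% of the genes tested. Here too WT 3 changed the count of calls most. Without WT 3, 10 of the 31 genes were higher in LXR DKO, where 5.55% of all genes tested were called higher and 7.48% lower. The 10 were Dnai1, Dnai2, Dnaaf1, Zmynd10, Ccdc40, Rsph4a, Tekt1, Cfap44, Cfap52 and Pifo, and Rsph4a, for example, then differed by 1.98 ± 0.38 (limma, adjusted p = 0.0158), against 1.07 ± 0.70 (adjusted p = 0.375) with all libraries. Because WT 3 was singled out after its values had been seen, these calls too are no separate support for a difference.

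The comparison of transgenic with LXR DKO libraries, which asks what the transgene adds on the knockout background, involved no WT library in its fold changes. Again 0 of the 31 genes passed (limma), 4 had an unadjusted p under 0.05, all higher, where 4.71% of all genes tested did, and voom on recovered reads called 0. Few genes passed anywhere, 0.0548% of those tested being called higher and 0.0609% lower. The motile cilia genes lay mostly above 0 all the same: 30 of 31 did, with a median log2 fold change of 0.85 and a range from -0.08 to 1.24, against a median of 0.01 over all genes tested. For 15 of all 38 genes every transgenic library exceeded every LXR DKO library, against 7.9% of the 37863 genes and 11.3% of the genes tested. They were the dynein genes Dnah2, Dnah5, Dnah6, Dnah9, Dnah11 and Dnai1, the assembly factor Dnaaf3, Ccdc40, Rsph9, Spag16, Spag17, Cfap43, Cfap44, Cfap53 and Rfx3. This separation was not particular to the list. It also held for 16 of 37 genes of intraflagellar transport and the primary cilium and for 17 of 20 secretory oviduct markers. Foxj1 averaged 16.9 ± 8.90 RPKM in transgenic and 7.09 ± 2.05 RPKM in LXR DKO libraries (SD), a difference of 1.03 ± 0.76 (limma, adjusted p = 0.783), and transgenic 2 lay within the LXR DKO range. Dnah5, apart in every library, differed by 1.00 ± 0.36 and did not pass (limma, adjusted p = 0.514). The fit uses 1 spread per gene for all genotypes, so the wide WT range enters this comparison as well.

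Further genes of the same pathway were examined beside the 38. A list of 118 other motile cilia genes averaged 2.35, 1.78 and 2.40 on the log2(RPKM + 1) scale in transgenic, 1.48, 1.82 and 1.605 in LXR DKO and 1.125, 1.03 and 2.27 in WT libraries, so that its means ranked the 9 libraries as the means of the 38 did. Of its 90 tested genes, 5 were higher and 1 was lower in transgenic than in WT libraries, 0 and 1 in LXR DKO than in WT, and 0 and 0 in transgenic than in LXR DKO. Of all genes tested, 3.47% were called higher and 7.12% lower in LXR DKO than in WT libraries. In transgenic against WT libraries 5.15% were called higher and 6.72% lower. There the count of 5 higher is near the background and that of 1 lower is below it. The 5 were the inner arm intermediate chain gene Dnai3, which the matrix lists as Wdr63, the central apparatus gene Cfap46, Cfap65, and the cadherin genes Cdhr3 and Cdhr4. Cdhr3 measured 9.04, 3.70 and 4.65 RPKM in transgenic, 2.19, 1.71 and 0.761 RPKM in LXR DKO libraries and 0.114, 0.0591 and 1.67 RPKM in WT libraries. Among its most abundant genes, the tubulin gene Tubb4b measured 147, 79.2 and 157 RPKM in transgenic, 56.9, 107 and 65.7 RPKM in LXR DKO libraries and 32.5, 30.5 and 123 RPKM in WT libraries. Capsl measured 62.1, 43.2 and 92.5 RPKM in transgenic, 20.5, 49.0 and 31.4 RPKM in LXR DKO libraries and 6.73, 7.26 and 86.0 RPKM in WT libraries. Both again set transgenic 1, transgenic 3 and WT 3 above WT 1 and WT 2.

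Genes that primary cilia also use varied much less, but with WT 1 and WT 2 again lowest and transgenic 1 and transgenic 3 highest. The 37 genes of intraflagellar transport and the primary cilium averaged 2.95, 2.80 and 2.99 in transgenic, 2.68, 2.73 and 2.68 in LXR DKO and 2.56, 2.51 and 2.89 in WT libraries. Of 35 tested, 5 were higher in transgenic than in WT libraries, the transport genes Ift140 and Ift172, the retrograde motor gene Dync2h1 and the BBSome genes Bbs1 and Bbs2, where 5.15% of all genes tested were called higher. Ift20 was lower in LXR DKO libraries, at 23.5, 22.3 and 17.6 RPKM, against 31.1, 29.5 and 38.1 RPKM in WT libraries. Paralogs of the list that also or only work outside motile cilia, among them Rfx1, which the list of other motile cilia genes holds too, averaged 2.54, 2.62 and 2.68 in transgenic, 2.51, 2.56 and 2.58 in LXR DKO and 2.49, 2.48 and 2.38 in WT libraries, with the lowest value in WT 3, where the motile cilia genes were high. Markers of sperm and spermatids, the other cells with a motile axoneme, averaged at most 0.233 in any library, and Prm2, Tnp1, Tnp2, Smcp and Spem1 were listed at 0 in all 9.

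As a mean, markers of the oviduct's secretory epithelium moved with the cilia genes in most libraries, but not every marker did. Of the 18 tested, 17 had a log2 fold change above 0 in transgenic minus WT (range -0.88 to 3.08). In LXR DKO minus WT 13 did (range -1.89 to 1.23), and in transgenic minus LXR DKO all 18 did. The 20 markers averaged 4.34, 4.21 and 4.60 in transgenic, 3.04, 3.80 and 3.43 in LXR DKO and 2.38, 2.43 and 4.68 in WT libraries, and of 18 tested 2 were higher in transgenic than in WT libraries, Cdh1 and Spint1, where 5.15% of all genes tested were called higher. In the same comparison 7 of 19 tested granulosa markers and 4 of 10 macrophage markers were lower, where 6.72% of all genes tested were called lower, and 0 of the tested oocyte, erythroid, smooth muscle and ovarian surface markers passed. Ovgp1, the gene of oviductin, measured 1266, 1857 and 1679 RPKM in transgenic, 226, 655 and 477 RPKM in LXR DKO libraries and 52.2, 108.7 and 1125 RPKM in WT libraries. The keratin gene Krt18 measured 292, 344 and 396 RPKM in transgenic, 209, 237 and 193 RPKM in LXR DKO libraries and 241, 151 and 576 RPKM in WT libraries. Both were high in WT 3, as the cilia genes were, but Krt18, unlike most cilia genes, was higher in WT 1 than in every LXR DKO library. Transgenic 2 also went apart: it had the highest Ovgp1 and yet the lowest cilia gene mean of the transgenic libraries. The mean of the 38 cilia genes minus that of the secretory markers was -1.43, -2.11 and -1.66 in transgenic, -1.37, -1.55 and -1.50 in LXR DKO and -1.22, -1.45 and -1.89 in WT libraries. Markers of smooth muscle also differed between libraries (2.70, 2.34 and 1.89 in transgenic, 1.56, 2.76 and 1.42 in LXR DKO, 1.54, 1.40 and 2.74 in WT). Those of ovarian surface and mesothelium moved with the cilia genes as the secretory markers did (2.53, 2.095 and 2.86 in transgenic, 1.26, 2.03 and 1.70 in LXR DKO, 0.861, 0.715 and 2.61 in WT). Krt7 and Krt19 are in both of these marker lists, secretory and ovarian surface. The macrophage markers averaged 3.16 to 3.52 in transgenic, 4.09 to 4.51 in LXR DKO libraries and 3.83 to 4.67 in WT libraries. The part of any of these cells in the results on cilia genes was not tested.

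**Figure D3:**
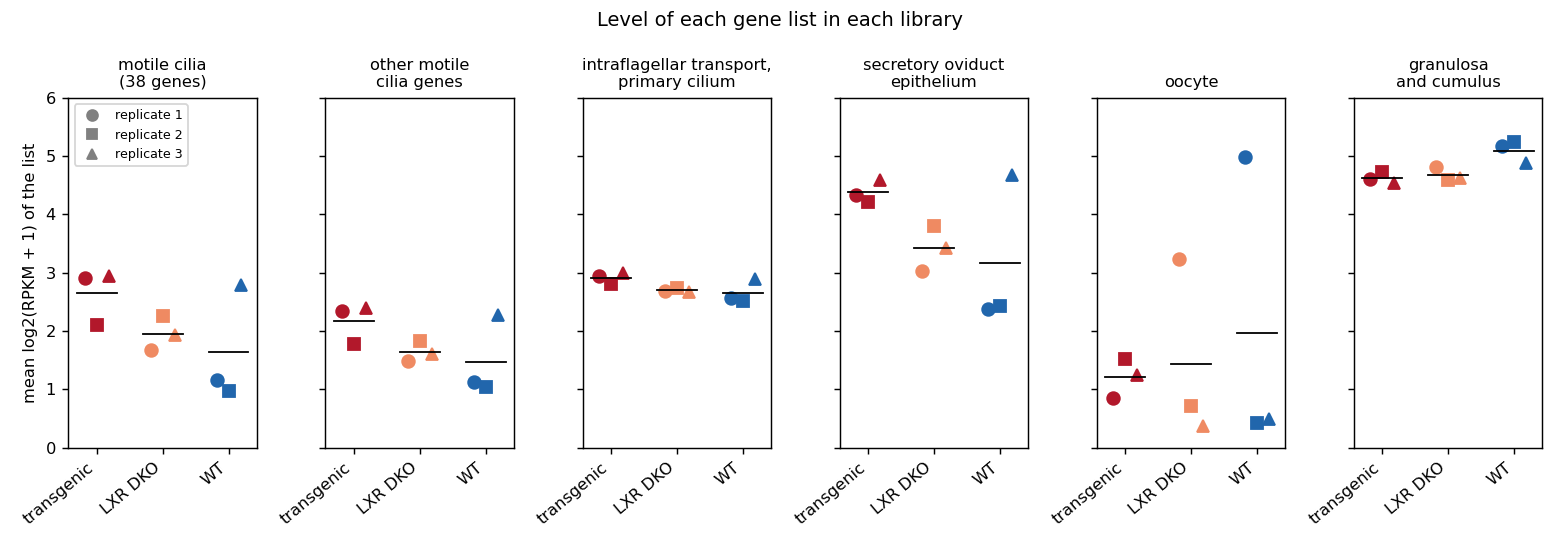
Each panel gives the mean log2(RPKM + 1) of 1 gene list, by genotype, with 1 point per library, its shape showing the replicate number, and a line at the mean of the 3 libraries. The motile cilia genes (0.97 to 2.95), the other motile cilia genes (1.03 to 2.40) and the secretory oviduct markers (2.38 to 4.68) all have WT 3 far above WT 1 and WT 2, while the intraflagellar transport genes stay between 2.51 and 2.99.

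The genes within the list were then compared at a matched level of cilia RNA, by adding the mean of the 118 other motile cilia genes as a covariate to the same fit, a choice made after the data had been seen. Between transgenic and WT libraries 6 of the 31 genes then passed (limma), 2 higher and 4 lower, where 3.76% of all genes tested were called higher and 4.75% lower. Ccdc40 rose by 0.81 ± 0.17 (limma, adjusted p = 0.024) and Cfap44 by 0.69 ± 0.12 (limma, adjusted p = 0.0136). Tekt4 fell by 0.84 ± 0.13 (limma, adjusted p = 0.0103), Cfap126 by 0.89 ± 0.19 (limma, adjusted p = 0.025), Tppp3 by 0.65 ± 0.14 (limma, adjusted p = 0.0277) and Rsph1 by 0.61 ± 0.14 (limma, adjusted p = 0.0359). Of the ruler pair and of the tether pair only 1 gene each passed: the other ruler gene, Ccdc39, differed by 0.06 (limma, adjusted p = 0.83) and the other tether gene, Cfap43, by 0.15 (limma, adjusted p = 0.51). Dnah5 differed by 0.85 (limma, adjusted p = 0.0619) and Dnah6 by 0.60 (limma, adjusted p = 0.0568), while Foxj1 differed by -0.26 (limma, adjusted p = 0.191). Between LXR DKO and WT libraries 5 genes passed, all higher, where 6.06% of all genes tested were called higher and 9.54% lower, namely Dnai2, Ccdc40, Rsph4a, Tekt1 and Cfap44. Between transgenic and LXR DKO libraries Tekt4 alone passed, and it was lower, where 0.171% of all genes tested were called lower and 0.0913% higher.

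Exon length moved with these differences. The genes that were higher in transgenic than in WT libraries have long transcripts, with summed exons of 6030 bases for Ccdc40 and 8405 for Cfap44, and the 4 that were lower have short ones, with 1372 bases for Rsph1, 1774 for Cfap126, 1848 for Tppp3 and 1997 for Tekt4. Over all genes tested, the same fit gave a median log2 fold change between transgenic and WT libraries of -0.13 for exons under 1 kb, -0.06 for 1 to 2 kb, 0.00 for 2 to 4 kb, 0.10 for 4 to 8 kb and 0.18 for 8 kb or more. For the motile cilia genes themselves the medians in the same classes were -0.61 (2 genes), -0.50 (9 genes), 0.10 (10 genes), 0.21 (6 genes) and 0.64 (4 genes), so in this fit they too went up with length and over a wider range. Without the covariate their medians were 1.15, 0.89, 1.455, 0.88 and 1.31 in the same order, with no steady rise. Those of all genes tested then ran from -0.12 for the shortest class to 0.09 for the longest. Length did not order every call: Tekt1, higher in LXR DKO than in WT libraries in the covariate fit (0.44, limma, adjusted p = 0.0257), has 1622 bases of exons. The part of length, or of expression level, in these differences was not tested. Of the WT libraries WT 3 alone lay within the transgenic range of the covariate, so the covariate fit rests on that library for its comparison of transgenic with WT.

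**Figure D4:**
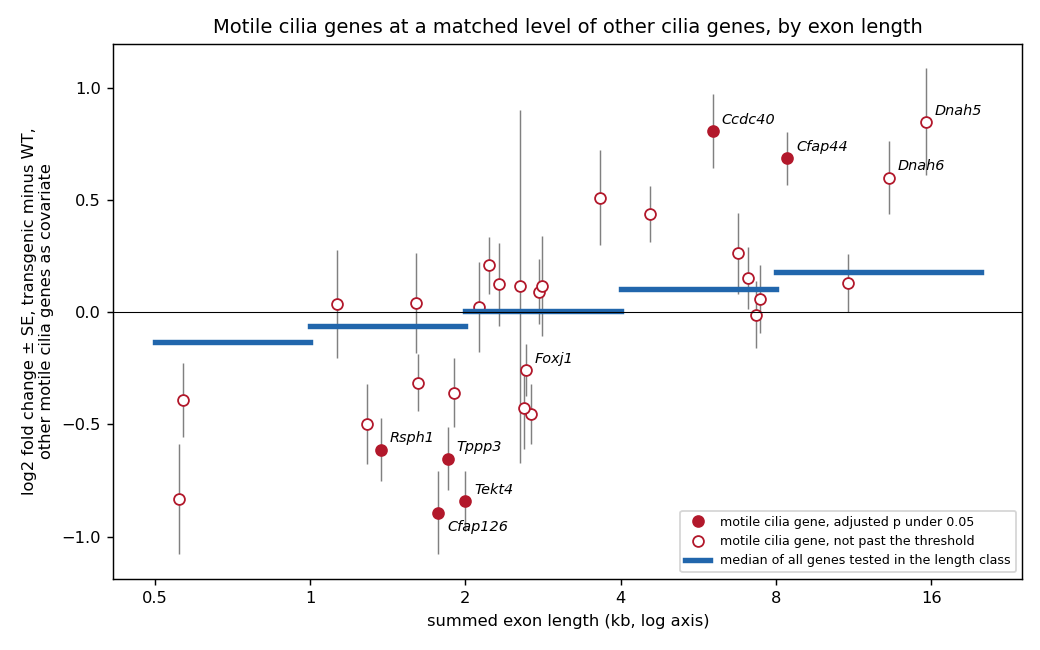
Points give the log2 fold change of each tested motile cilia gene, transgenic minus WT, with the other motile cilia genes as a covariate, against the summed exon length on a log axis; bars are standard errors, filled points passed an adjusted p of 0.05, and blue lines mark the median of all genes in each length class. Ccdc40 and Cfap44 are the filled points above 0 and Tekt4, Cfap126, Tppp3 and Rsph1 those below.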

How the data were processed

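RNA of 9 mouse corona radiata libraries was sequenced (Illumina NextSeq, per the labels). The authors deposited RPKM values, 1 column per library; columns of values not used numbered 0. Transgenic columns, named with 1 letter other than in the descriptions, were matched by TG and number. Per the submitters' processing notes, without roles, the tools were HISAT2 2.1.0, cutadapt, DESeq2 1.2.8 and HTSeq 0.5.4p5, and the build mm10. No source used here gives strand setting or annotation, so members that overlap other genes on the opposite strand (Dnah11, Dnaaf1, Ccdc39 and Spag17 among them) have uncertain values.

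The members and gene lists were chosen with earlier results of these data known. Every member is described by role, with values per library for regulators, genes past the threshold and the most abundant of each role, and ranges for others. Whole reads, within 0.02 reads, were recovered from RPKM with GENCODE M21 exon lengths for 37146 of 37863 genes (98.1%); reads in these genes numbered 29822412 to 44049966 per library. They were used for depth and for voom only.

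Values were tested as log2(RPKM + 1) in limma 3.58.1 (R 4.3.3), trend on, in 1 fit of all 9 libraries, for genes at 1 RPKM or more in at least 3 libraries. The pseudocount understates changes of low genes. P-values were adjusted by Benjamini-Hochberg, threshold 0.05. Scripts were tested on simulated data. Means of lists are over log2(RPKM + 1), with no test. Comparisons share their libraries. Alternatives changed the pseudocount, filter, scaling, libraries and covariates.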

Additional observations from a re-analysis of the deposited data

How the results depend on the processing

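Directions and calls depended on which libraries and covariates entered. Between transgenic and WT libraries, 3 motile cilia genes passed with the settings used, 5 with a replicate block, 6 with the other motile cilia genes as a covariate, and 0 without a filter, with a filter of 1 RPKM in every library, with only these 2 genotypes, with Ovgp1 as a covariate, or without both libraries with most oocyte RNA, WT 1 and LXR DKO 1. The last, and the covariate of other motile cilia genes, were chosen after seeing the data. Every transgenic library exceeded every other library in Ovgp1, so results with that covariate are extrapolated where transgenic libraries are compared. Leaving out each library in turn was planned, but WT 3 was singled out among them after seeing the data. Leaving out 1 library gave 0 to 29. The median of the list was 1.06, -0.30 with Ovgp1, 0.0395 with the other cilia genes and 0.69 to 1.91 with 1 library left out. Other motile cilia genes past the threshold numbered 6, but 3 without a filter, 1 with the stricter filter, 2 with 2 genotypes, 2 with Ovgp1, 1 without the oocyte-rich libraries, 13 with the other cilia genes and 0 to 69 with 1 library left out. The 13 were adjusted for the mean of their own list, so that count is circular and says nothing about the list. With that covariate 3.76% of all genes tested were called higher and 4.75% lower. All genes numbered 1949, but 1096 without a filter, 640 with Ovgp1, 1248 without the oocyte-rich libraries and 650 to 3555 with 1 library left out. The share of all genes called with the replicate block is not given here, so the 5 members have no background beside them.

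Between LXR DKO and WT libraries, the members numbered 0, 5 with the other cilia genes and 0 to 10 with 1 library left out, and their median was 0.31, or -0.02 to 1.02. Other motile cilia genes numbered 1, but 0 without a filter, with 2 genotypes or with the replicate block, 2 with voom, 2 with Ovgp1, 10 with the other cilia genes and 0 to 21 with 1 library left out. The 10 are circular in the same way, and with that covariate 6.06% of all genes tested were called higher and 9.54% lower. All genes numbered 1739, but 1032 without a filter, 807 with 2 genotypes, 1145 without the oocyte-rich libraries and 609 to 2140 with 1 library left out. Between transgenic and LXR DKO libraries, the members numbered 0, or 1 with the other cilia genes, and 0 with each library left out. The median was 0.85, -0.18 with Ovgp1, -0.14 with the other cilia genes and 0.62 to 1.19 with 1 library left out. Other cilia genes numbered 0 to 1. All genes numbered 19, but 30 after quantile normalization, 93 with 2 genotypes, 8 with the replicate block, 52 with Ovgp1, 43 with the other cilia genes and 6 to 150 with 1 library left out.

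The sign of Foxj1 turned with Ovgp1 as a covariate for transgenic minus WT (-0.52), transgenic minus LXR DKO (-0.22) and LXR DKO minus WT (-0.30), and with the other cilia genes for the first (-0.26) and second (-0.30) of these. For LXR DKO minus WT it ran from -0.12 without WT 2 to 1.42 without WT 3. Rsph4a turned in transgenic minus LXR DKO with Ovgp1 (-0.23) and with the other cilia genes (-0.20). With Ovgp1, the values for comparisons with transgenic libraries are extrapolated, since no other library reached their Ovgp1 level. Why these values moved was not tested, except that leaving out libraries or genes changes what is fitted. Whether replicate numbers pair the libraries is not settled by these values. Same-numbered deviations correlated from -0.29 to 0.67, the latter between WT 1 and LXR DKO 1, and others from -0.55 to 0.53. With the replicate block Ccdc40 passed in transgenic minus WT (adjusted p = 0.0468).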

Other observations

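Some genes annotated to motile cilia or to their control did not follow the motile cilia list. Rsph3a, 1 of a pair of related radial spoke genes, measured 15.6, 15.1 and 16.1 RPKM in transgenic, 21.1, 20.8 and 20.1 RPKM in LXR DKO libraries and 20.8, 21.5 and 27.3 RPKM in WT libraries. Whether its reads were assigned to the right copy was not tested. Its copy Rsph3b measured 20.9, 20.7 and 21.8 RPKM in transgenic, 23.8, 23.9 and 23.0 RPKM in LXR DKO libraries and 23.6, 24.2 and 31.6 RPKM in WT libraries. Rsph3a was lower in transgenic than in WT libraries (-0.53 on the log2 scale), the opposite of most cilia genes. E2f5, which encodes a factor of the multiciliation programme, measured 11.0, 11.2 and 12.3 RPKM in transgenic, 31.1, 9.64 and 9.11 RPKM in LXR DKO libraries and 35.9, 8.31 and 10.9 RPKM in WT libraries, so that, like Ccno, it was highest in WT 1 and LXR DKO 1. Ubxn11 was lower in LXR DKO than in WT libraries, at 4.65, 5.17 and 3.58 RPKM in LXR DKO libraries and 8.23, 6.36 and 9.61 RPKM in WT. These genes were named after their values had been seen.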
